A study of Mus musculus with 14 samples.

Results

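The nuclear genes that encode the subunits of oxidative phosphorylation were chosen by symbol. They were those that start with Nduf, Uqcr, Atp5 or Cox4 to Cox8, and Sdha, Sdhb, Sdhc, Sdhd, Cyc1 and Cycs. This gave 86 genes, measured by 160 of the 22690 probe sets on the array, out of 12394 genes with a probe set of their own. They comprised 33 genes of complex I, 4 of complex II, 9 of complex III, 17 of complex IV and 17 of complex V, together with Cycs, the electron carrier cytochrome c. Ndufa4, first described in complex I, was placed in complex IV. The symbol rule also took in 5 complex I assembly factors of the Ndufaf series, which help to build the complex and are not subunits. A brightness limit was set on the mean over the arrays of the log2 values defined below, not on the mean of the signals. It stood at 5.919, which corresponds to a signal of 44.5, and left 149 probe sets of 84 genes for testing. The isoform genes Cox7a1 and Cox8b were too dim.

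Oxidative phosphorylation is carried out by protein complexes of the inner mitochondrial membrane. Complexes I and II pass electrons from NADH and succinate to ubiquinone, complex III passes them on to cytochrome c, and complex IV passes them to oxygen. Complexes I, III and IV pump protons, and the ATP synthase, complex V, uses the gradient to make ATP. Most subunits are encoded in the nucleus, and several subunits of complex IV exist as isoforms of particular tissues. In the thymus, dividing precursors and resting thymocytes both express these genes, as do the stromal cells and fat around them.

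Total RNA of whole thymus came from female C57BL/6 mice whose ovaries had been removed at 26 days of age and which ate a purified diet free of phytoestrogens. The 14 arrays formed 7 groups of 2. The control mice were untreated and taken at day 0, at 30 days of age. The estradiol groups received 125 ng of 17β-estradiol per day under the skin in 0.02 ml of corn oil and were taken on days 2, 3 and 6, and the genistein groups ate feed with 1500 ppm of genistein, a soy isoflavone, for the same times. Each array held a pool of 3 mice, and the labels call the 2 pools of a group independent biological replicates. Untreated mice of days 2, 3 and 6 were not analysed here, so against control the treatment and the elapsed time cannot be told apart. Oil injections are listed for estradiol alone, so hormone and injection cannot be told apart either. The ovariectomised mice model an animal without ovarian hormones of its own.

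Values are array signals brought to a common 2%-trimmed mean of 150.04. On 11 arrays this was the deposited scale, while the deposited values of estradiol day 2 replicate 2 and day 3 replicates 1 and 2 stood at 1.49, 2.00 and 2.23 times that scale. The double-positive thymocyte list of 12 genes summed to between 15130 and 19150 on every array, so defining markers of thymus were bright on all 14. Gapdh has probe sets at its 3' and 5' ends, and the ratio of their signals grows as RNA breaks down. It was highest on genistein day 6 replicate 1 (1.503), next on estradiol day 2 replicate 1 (1.27), and 0.867 to 1.105 on the other 12 arrays. Changes are differences of log2(signal + 16) in limma, with the standard error (SE), taken day by day and as the average of the 3 days with equal weights. A probe set was called at a Benjamini-Hochberg adjusted p under 0.05 over all 13576 tested.

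Between estradiol and genistein, averaged over days, 4 of the 149 probe sets were called. Atp5c1 and Atp5d, the γ and δ subunits in the rotating stalk of the ATP synthase, and Ndufs8, an iron-sulfur subunit in the arm of complex I, were lower with estradiol. Sdha, the flavoprotein of complex II that oxidises succinate, was higher. The 4 calls are 2.68% of the members tested, beside 1.41% of all probe sets (192 called, 152 higher and 40 lower). A larger set of 37 probe sets had an unadjusted p under 0.05, 35 of them lower with estradiol, which is 24.83% of the members beside 17.11% of all probe sets.

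The upstream sequences of these 4 genes are shown because they are the members with a call. Each is the 250 bases before a RefSeq start site in build GRCm38.p6, on the strand of the gene, with capitals on matches to the letters GCGCANGCG of nuclear respiratory factor 1 (NRF1), an activator of many respiratory chain genes, or to the other motifs searched.
Atp5c1 (chr2:10080511-10080760, minus strand): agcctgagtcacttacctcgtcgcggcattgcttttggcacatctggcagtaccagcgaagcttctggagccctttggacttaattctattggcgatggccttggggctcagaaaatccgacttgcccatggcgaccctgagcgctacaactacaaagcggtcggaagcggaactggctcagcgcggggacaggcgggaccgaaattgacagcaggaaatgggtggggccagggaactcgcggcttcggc
Atp5d (chr10:80142025-80142274, plus strand): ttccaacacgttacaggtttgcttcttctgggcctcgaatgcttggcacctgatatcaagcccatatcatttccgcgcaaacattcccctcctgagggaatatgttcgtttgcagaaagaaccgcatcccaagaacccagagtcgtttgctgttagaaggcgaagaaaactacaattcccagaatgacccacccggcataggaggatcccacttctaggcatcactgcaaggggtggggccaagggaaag
Ndufs8 (chr19:3912775-3913024, minus strand): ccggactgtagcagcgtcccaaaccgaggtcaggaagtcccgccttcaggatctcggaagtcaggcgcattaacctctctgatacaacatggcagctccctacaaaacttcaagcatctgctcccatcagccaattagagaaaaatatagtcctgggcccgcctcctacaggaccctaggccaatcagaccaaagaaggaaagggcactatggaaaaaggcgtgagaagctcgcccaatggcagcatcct
Sdha (chr13:74350241-74350490, minus strand): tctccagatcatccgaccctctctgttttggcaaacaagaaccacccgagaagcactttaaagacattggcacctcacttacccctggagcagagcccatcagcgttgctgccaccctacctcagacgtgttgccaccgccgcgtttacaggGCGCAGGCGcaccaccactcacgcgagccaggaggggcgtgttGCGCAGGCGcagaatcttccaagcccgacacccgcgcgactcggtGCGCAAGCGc

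The genes themselves span chr2:10056030-10080510 (Atp5c1), chr10:80138698-80145828 (Atp5d), chr19:3908863-3912774 (Ndufs8) and chr13:74322255-74350240 (Sdha). The Atp5d stretch therefore lies inside the annotated span of its gene, before a start site within it, and the others lie just outside. The Sdha stretch held 3 NRF1 matches, which begin 98, 55 and 10 bases before the start site. The stretches printed for Atp5c1, Atp5d and Ndufs8 held no match to any of the motifs searched. A second Atp5c1 window in the table held an NRF1 match, and the full Ndufs8 window held an ETS match that does not lie wholly within the bases printed. Over the full windows, from 250 bases before to 50 after the start site, 71 of the 86 genes had an entry, with 76 windows. NRF1 letters were found in 21 of these windows (27.6%) and in 6.25% of all 32851 windows. The letters CCGGAAG of ETS factors such as GABP were in 23.7% and 8.86%, the GC box GGGCGG in 43.4% and 35.7%, and AAGATGG, the core of YY1 sites, in 13.2% and 6.34%. Both strands were searched and matches to different motifs may overlap. A match describes the letters and does not show a site in use.

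Atp5c1 had signals of 1565 and 1756 on the control arrays. Estradiol arrays had 1708 and 1419.5 on day 2, then 1317 and 1268 on day 3 and 1236 with 1199 on day 6. Genistein arrays had 1747 and 1716 on day 2, then 1779 and 1676 on day 3 and 2059.7 with 1669 on day 6. Of the 6 estradiol arrays, 5 lay below both controls and below all genistein arrays, and estradiol day 2 replicate 1 lay among them. The difference between estradiol and genistein was -0.39 ± 0.0764 (SE; limma, adjusted p = 0.0247), with -0.15, -0.41 and -0.60 at days 2, 3 and 6. A second, dim Atp5c1 probe set stood at 0.047 ± 0.105 (limma, adjusted p = 0.858).

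Atp5d measured 1195 and 1123 in controls. Under estradiol it had 1309.9 with 1166 on day 2, 1012 with 1045 on day 3 and 1101 with 1110.4 on day 6, and under genistein 1441 and 1398, 1361 and 1368, and 1669 and 1303. All genistein arrays were above both controls, and 5 of 6 estradiol arrays were below all genistein arrays. Its difference between treatments was -0.34 ± 0.0749 (limma, adjusted p = 0.0450). The other Atp5d probe set went the opposite way, at 0.10 ± 0.095 (limma, adjusted p = 0.610).

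Ndufs8 has 6 probe sets, all with a negative difference. The called one had 270.3 and 209.4 in controls, 230.3 with 224.0 on day 2 of estradiol, 182.4 with 185.3 on day 3 and 173.6 with 204.0 on day 6. Its genistein signals were 319.5 and 281.9, 297.9 and 280.6, and 343.9 and 236.7. The treatments did not overlap, and controls lay between or among them. The difference was -0.52 ± 0.105 (limma, adjusted p = 0.0290), and -0.37 ± 0.0869 for the brightest probe set (limma, adjusted p = 0.0576).

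The called Sdha probe set, the dimmer of a pair, had 337.7 and 337.9 in controls, 409.7 with 390.3 on day 2 of estradiol, 362.5 with 355.6 on day 3 and 456.7 with 451.4 on day 6. With genistein it had 247.1 and 350.3, 292.3 and 283.4, and 341.5 and 297.4. All estradiol arrays were above both controls and above all genistein arrays. The difference was 0.41 ± 0.0909 (limma, adjusted p = 0.0463), while the brighter Sdha probe set stood at 0.15 ± 0.0844 (limma, adjusted p = 0.371).

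**Figure D1:**
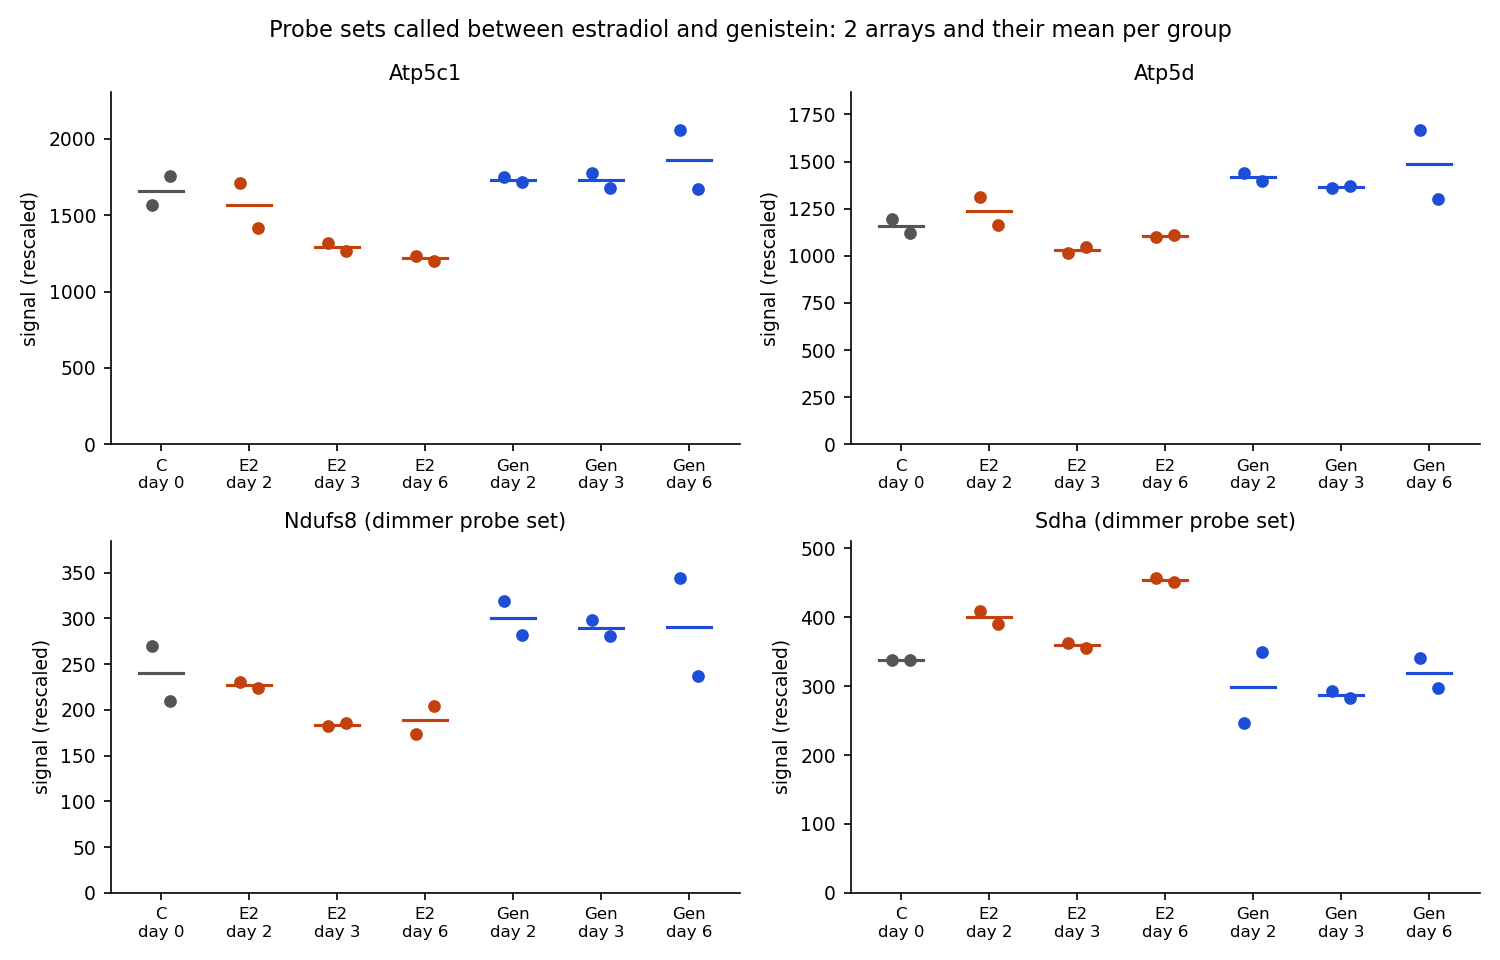
Signals of the 4 called probe sets on each of the 14 arrays by group (points), with the mean of the 2 arrays (lines); C is control, E2 estradiol and Gen genistein. The Ndufs8 and Sdha points of estradiol and genistein do not overlap, and Atp5c1 has 1708 and 1419.5 at day 2 and 1236 and 1199 at day 6 of estradiol.

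When any 1 array was left out, the 4 differences kept their direction, but the calls were not all kept. The difference ranged from -0.439 to -0.338 for Atp5c1, from -0.396 to -0.278 for Atp5d, from -0.602 to -0.432 for Ndufs8 and from 0.326 to 0.485 for Sdha. The number of members called was 0 without either estradiol array of day 3 or day 6, without genistein day 2 replicate 1, either genistein array of day 3 or genistein day 6 replicate 1. It was 1 without estradiol day 2 replicate 2, 2 without either control array, 7 without estradiol day 2 replicate 1, 5 without genistein day 2 replicate 2 and 8 without genistein day 6 replicate 2. It was also 0 when the model held a term for the deposited scale. That term rests on the 2 estradiol arrays of day 2, the only group with both scales. Without the 3 arrays deposited at another scale, estradiol had no array of day 3 and 1 of day 2. The mean was then over days 2 and 6 alone for both treatments. Without these arrays and with the term, in that order, the differences were -0.31 and -0.256 for Atp5c1 and -0.262 and -0.254 for Atp5d. They were -0.461 and -0.499 for Ndufs8, and 0.473 and 0.439 for Sdha. Calls over all probe sets with arrays left out are not listed here. The counts therefore show how the members' calls moved, not how the members compare with other genes.

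The smallest adjusted p above the threshold outside Ndufs8 were those of complex IV subunits. Cox7a2l, linked to supercomplexes of complexes III and IV, stood at -0.38 ± 0.0914 (limma, adjusted p = 0.0609) and Cox7a2, the isoform of most tissues, at -0.26 ± 0.0683 (adjusted p = 0.0762). Cox4i2, a regulatory isoform known from lung, stood at -0.40 ± 0.110 (limma, adjusted p = 0.0876). Its signals were 42.8 to 51.9 on the estradiol arrays of days 3 and 6, up to 88.6 at day 2, and 56.9 to 98.2 with genistein, against 59.1 and 55.5 in controls. Cox4i1, the common isoform, stood at -0.20 ± 0.116 (limma, adjusted p = 0.407). In complex III the small subunit Uqcr10 stood at -0.31 ± 0.102 by its brightest probe set (limma, adjusted p = 0.133). In complex V, Atp5l stood at -0.33 ± 0.0964 (limma, adjusted p = 0.101) and Atp5j, a coupling factor in the stalk, at 0.16 ± 0.0783 (adjusted p = 0.314).

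At single days 0 members were called between estradiol and genistein (limma), beside 0.081%, 0.0147% and 0.265% of all probe sets on days 2, 3 and 6. At an unadjusted p under 0.05 there were 9, 12 and 33 members on those days, which is 6.04%, 8.054% and 22.15% of them, beside 6.718%, 6.703% and 13.44% of all probe sets. On day 6 the smallest adjusted p were 0.0884 for Cox7a2l and 0.0933 for Atp5c1. The F test of whether the difference between treatments varied with the day called 0 members (limma) and 0% of all probe sets. Its unadjusted p was under 0.05 for 10 members, 6.711% of them beside 4.235% of all probe sets, and was smallest for Ndufa7. Cycs differed by 0.58 ± 0.192 at day 2 and by -0.23 and -0.029 at days 3 and 6. The test over all 7 groups called 0 members (limma) and 0.368% of all probe sets, with the smallest adjusted p at 0.166 for Atp5c1. Its unadjusted p was under 0.05 for 22 members, 14.77% of them beside 12.75% of all probe sets.

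By ranges, 3 probe sets (2.01%) had all estradiol arrays below all genistein arrays, beside 0.412% of all probe sets. They belong to Ndufc1, Ndufs8 and Uqcr10. In the other direction Sdha was the single one (0.671%, beside 0.965%).

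By complex, the median difference over genes, each by its brightest probe set, was -0.096 for complex I, 0.080 for complex II, -0.13 for complex III, -0.10 for complex IV and -0.11 for complex V. Negative values were found for 26 of 33, 1 of 4, 8 of 9, 13 of 15 and 13 of 17 genes. At day 2 the medians of complexes I to V were 0.0082 (17 of 33 positive), 0.11, 0.058 (6 of 9 positive), -0.0028 and -0.065. At day 3 they were -0.092, 0.092, -0.11, -0.15 and -0.14, and at day 6 -0.14, 0.12, -0.30, -0.22 and -0.12. Over all 84 genes the median was -0.013, -0.11 and -0.16 at days 2, 3 and 6. The median over all 84 genes was -0.10, with 66 negative, beside -0.011 over all 8214 genes tested. It was -0.018 with a model term for the deposited scale, -0.049 with the Gapdh ratio as a covariate and -0.048 without genistein day 6 replicate 1. The term for scale rests on the 2 estradiol arrays of day 2, of which replicate 1 had the second highest Gapdh ratio. Leaving out the 3 arrays of another deposited scale gave a median of -0.056, over days 2 and 6 alone. Without estradiol day 2 replicate 2 the median was -0.069. On the deposited scale it was 0.34, beside 0.41 for all genes. Complex II turned to -0.0066 without those 3 arrays.

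**Figure D2:**
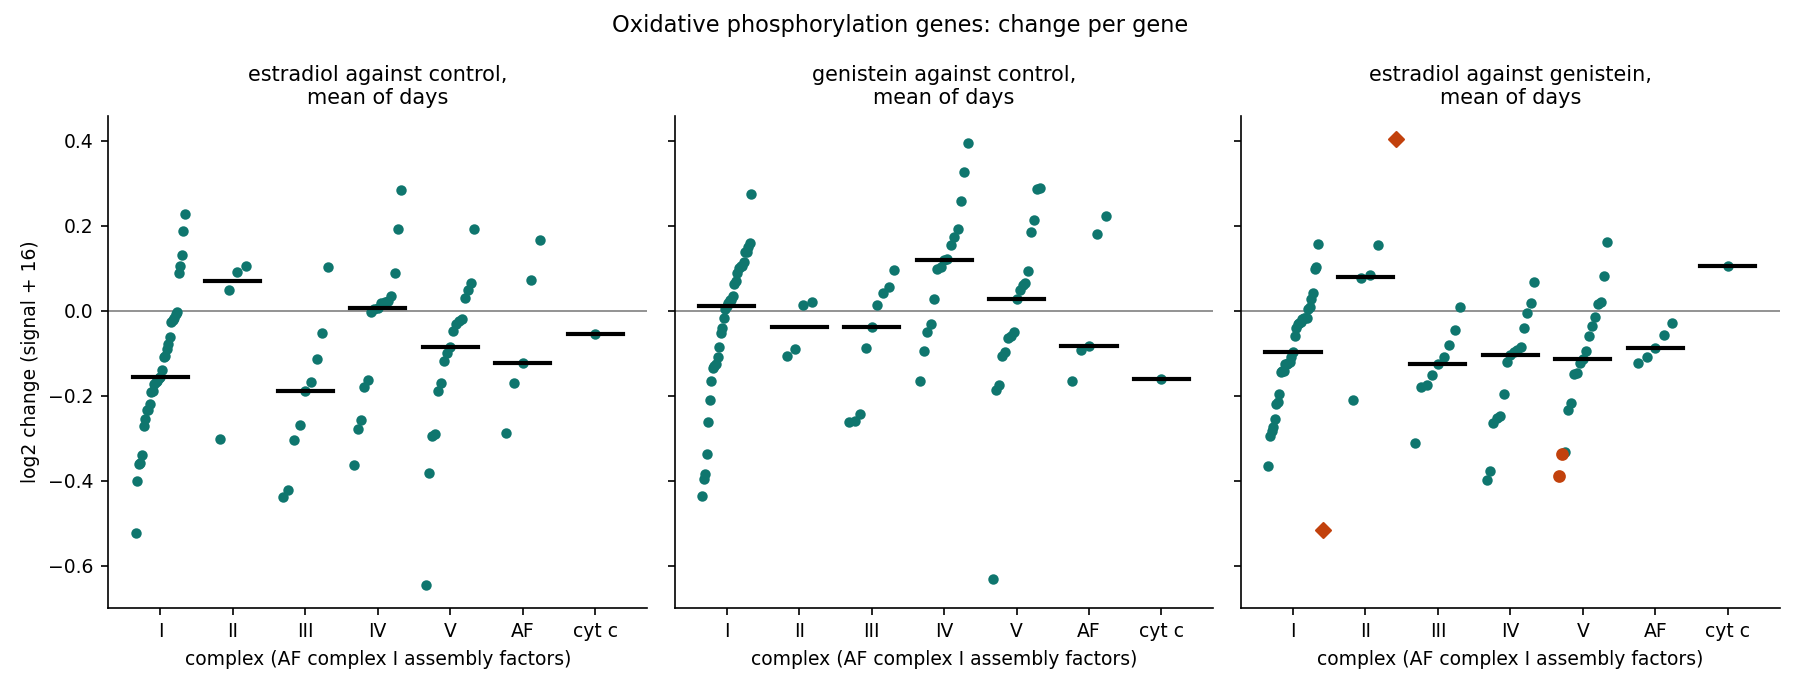
Log2 change of each gene by its brightest probe set (green points, sorted within each complex), averaged over days, with the median of the complex (black line). Orange circles are called genes and orange diamonds called dimmer probe sets. In the right panel 66 of 84 genes lie below 0 and the Sdha and Ndufs8 diamonds stand at 0.41 and -0.52.

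Against untreated mice, estradiol gave 0 called members averaged over days (limma, 20 at an unadjusted p under 0.05, all lower), which is 13.42% of the members beside 14.84% of all probe sets. Over all probe sets 0.604% were called. By day, 0 members were called at days 2, 3 and 6 (limma), beside calls for 0.0884%, 0.0663% and 0.656% of all probe sets. The unadjusted p was under 0.05 for 11, 9 and 29 members. These are 7.383%, 6.04% and 19.46% of the members, beside 12.29%, 10.17% and 14.02% of all probe sets, so the members' share was below that of all probe sets on days 2 and 3 and above it on day 6. The smallest limma adjusted p was 0.122, for Uqcrh over the mean of days and for Uqcrh and Atp5k, a small subunit of complex V, at day 6.

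In complex I, the accessory subunits Ndufb1 and Ndufb11 stood at -0.52 ± 0.175 and -0.36 ± 0.110 (limma, adjusted p = 0.182 and 0.151), and Ndufb9 at -0.40 ± 0.160. The highest values were Ndufa6 at 0.23 ± 0.135 and Ndufs3, a core subunit, at 0.19 ± 0.136. Ndufb11 had signals of 1151 and 1462 in controls and 936.3 to 1086 with estradiol, so that all 6 estradiol arrays were below both controls. With genistein they were 1037 to 1483.

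In complex II, Sdhb, the iron-sulfur subunit, stood at -0.30 ± 0.135 (limma, adjusted p = 0.319), and Sdha, Sdhc and Sdhd, the latter pair anchors in the membrane, at 0.048, 0.105 and 0.090. Sdhb had 994.9 and 1300 in controls, 1299 with 973.7 on day 2 of estradiol, 929.8 with 864.9 on day 3 and 806.6 with 738.2 on day 6. Its lowest arrays were those of day 6, and genistein arrays ran from 882.1 to 1243.

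In complex III, Uqcrh, the hinge protein near cytochrome c1, stood at -0.44 ± 0.124 (limma, adjusted p = 0.122), and the Rieske iron-sulfur protein Uqcrfs1 at -0.42 ± 0.231 (adjusted p = 0.419). Uqcrh had 942.1 and 1117 in controls and 634.5 to 887.2 with estradiol, without overlap, and 798.9 to 909.9 with genistein, also below both controls. Uqcrb, a ubiquinone-binding subunit, stood at 0.10 ± 0.102 and Uqcrc1, a core subunit, at -0.053 ± 0.114.

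In complex IV, Cox4i1 stood at -0.36 ± 0.164 (limma, adjusted p = 0.324), Cox8c, an isoform known from testis, at -0.28 ± 0.144 and Ndufa4 at 0.28 ± 0.177. In complex V, Atp5md, a small subunit linked to pairing of the enzyme, had the lowest value, -0.65 ± 0.205 (limma, adjusted p = 0.165), with 427.7 and 662.5 in controls and 224.2 to 418.9 with estradiol. Atp5c1 stood at -0.29 ± 0.108 (limma, adjusted p = 0.222), and Atp5a1, the α subunit of the catalytic head, at 0.19 ± 0.127. The β subunit Atp5b stood at 0.048 ± 0.155. Atp5md is a gene whose control arrays differ widely, and the lower of them lay just above the highest treated array.

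The median change over the 84 genes was -0.11, with 60 negative, beside 0.0087 over all genes. It was -0.068, -0.093 and -0.18 at days 2, 3 and 6. By complex it was -0.16 (28 of 33 negative), 0.069 (1 of 4), -0.19 (8 of 9), 0.0067 (6 of 15) and -0.086 (13 of 17) for complexes I to V. The sign of complex IV turned with quantile normalization (-0.021), with centring of arrays on their medians (-0.037), with the deposited scale as a term (-0.024), with the Gapdh ratio as a covariate (-0.016), without either control array (-0.0057 and -0.070) and without either estradiol array of day 2 (-0.0068 and -0.0012). With the deposited scale as a term, which rests on the 2 estradiol arrays of day 2, the median of all members was -0.014. Complexes II and V then changed sign (-0.0096 and 0.0083). Without the 3 arrays at another scale, and so over days 2 and 6 alone, the median of all members was -0.054, and complex V stood at 0.014. Without estradiol day 2 replicate 2 it was -0.057, without estradiol day 2 replicate 1 -0.15, without control replicate 1 -0.19 and without control replicate 2 -0.072.

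By ranges, 15 probe sets (10.1%) were lower on every estradiol array than on both controls, beside 6.96% of all probe sets. Among them were Atp5md, Ndufb11, Ndufc1, Uqcrc2 and Uqcrh. Those higher on every estradiol array were the dimmer probe sets of Atp5d and Sdha (1.34%), beside 8.04%. No member was called without control replicate 2, and without control replicate 1 Ndufb11 and a dim probe set of Cycs were called lower.

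**Figure D3:**
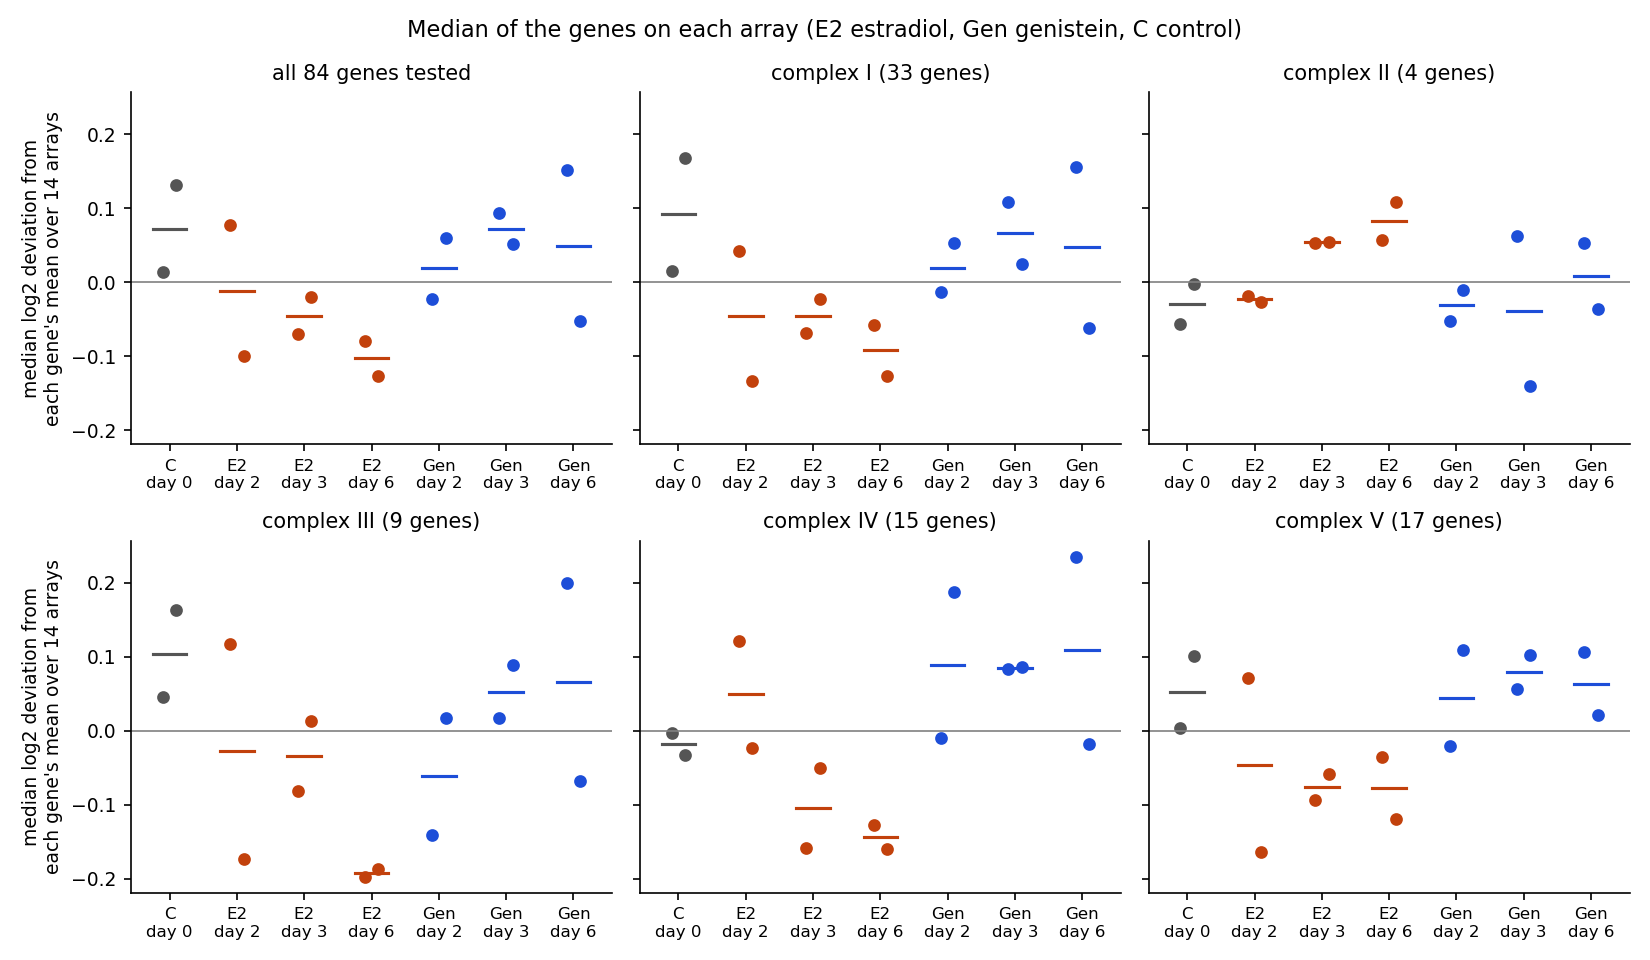
Median log2 deviation of the genes from their own mean over 14 arrays, for all 84 genes tested and for each complex; points are arrays, lines the mean of the 2 arrays of a group (C control, E2 estradiol, Gen genistein). The all-gene panel runs from -0.13 on estradiol day 6 replicate 2 to 0.15 on genistein day 6 replicate 1.

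Array by array, the median of the 84 genes was 0.013 and 0.13 on the control arrays. Estradiol arrays had 0.077 with -0.10 on day 2, -0.071 with -0.021 on day 3 and -0.079 with -0.13 on day 6. With genistein it was -0.023 and 0.060, 0.093 and 0.051, and 0.15 and -0.053. The gap between the 2 arrays of a group was widest at day 6 of genistein, where replicate 1 had the highest value of all arrays. That array also had the highest Gapdh ratio, 1.503, and estradiol day 2 replicate 1, the highest estradiol array at 0.077, had the next, 1.27. The other 5 estradiol arrays had ratios of 0.878 to 0.950 and medians below 0. Control replicate 2, with a ratio of 0.894, had the next highest median, 0.13. Medians and calls with the Gapdh ratio as a covariate are given with the other settings. The part of RNA breakdown itself in the result was not tested.

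**Figure D4:**
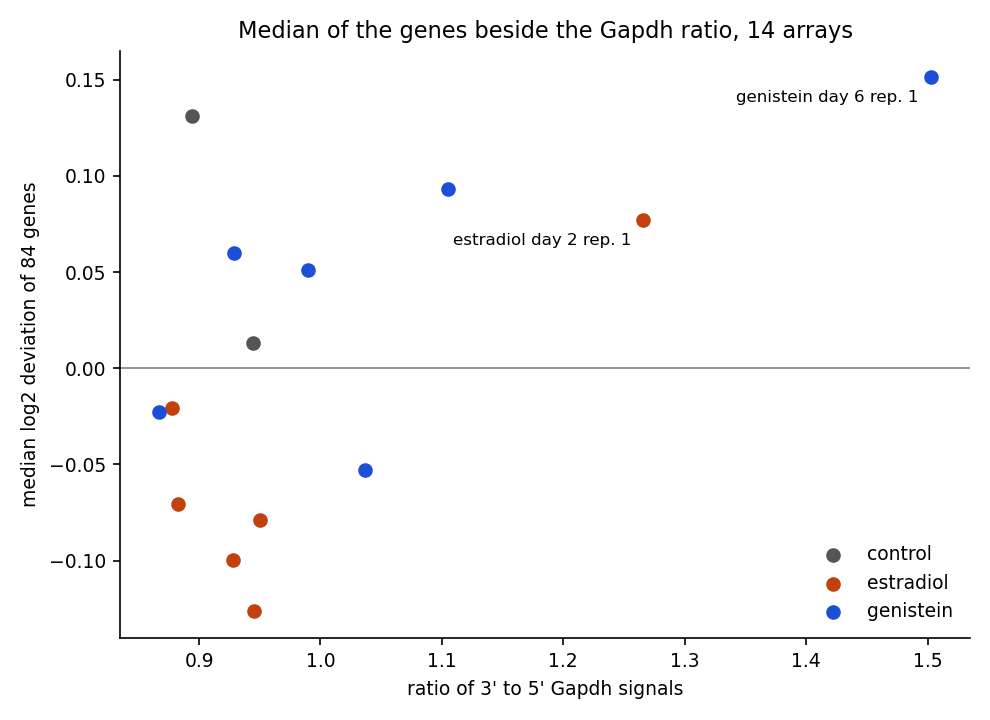
Median log2 deviation of the 84 genes (vertical axis) beside the 3' to 5' Gapdh signal ratio (horizontal axis) on the 14 arrays, coloured by treatment. The array with the highest ratio, genistein day 6 replicate 1 at 1.503, has the highest median, 0.15.

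Genistein against untreated mice gave 0 called members averaged over days (limma), and 0.0368% of all probe sets were called. At an unadjusted p under 0.05 there were 17 members, 6 higher and 11 lower, which is 11.41% of the members beside 11.1% of all probe sets. At days 2, 3 and 6, 0 members were called (limma), beside calls for 0.0147%, 0.00737% and 0.00737% of all probe sets. An unadjusted p under 0.05 was found for 19, 1 and 12 members, which is 12.75%, 0.6711% and 8.054% of them, beside 11.81%, 5.731% and 10.44% of all probe sets. Atp5md stood at -0.63 ± 0.205 (limma, adjusted p = 0.343), with signals of 293.9 to 408.3, below both controls. This comparison shares its control arrays with the estradiol comparison. Ndufs5 stood at -0.44 ± 0.176 and Ndufs8 at 0.27 ± 0.123 in complex I, Cox4i2 at 0.39 ± 0.156 in complex IV, and Atp5d and Atp5a1 at 0.29 ± 0.106 and 0.29 ± 0.127 in complex V. Their limma adjusted p ran from 0.363 for Atp5d to 0.437 for Ndufs8.

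The median over the 84 genes was 0.016, with 46 positive, beside 0.023 over all genes. By day it was -0.041 at day 2, with 50 of 84 negative, and 0.032 and 0.026 at days 3 and 6. Complexes I to V had medians of 0.010, -0.039, -0.039, 0.12 and 0.027. The sign of the members' median turned with centring on array medians (-0.016), with quantile normalization (-0.00014), with the Gapdh ratio as a covariate (-0.037), without genistein day 6 replicate 1 (-0.030) and without control replicate 1 (-0.071), while it was 0.047 without control replicate 2. Complex IV had a positive median in each of these settings, between 0.031 and 0.12. The members' median was also negative without genistein day 3 replicate 1 (-0.0046). By ranges, 4 probe sets (2.68%) were above both controls on every genistein array, beside 4.49%, and 7 (4.7%) were below, beside 4.19%. Those above belong to Atp5d, Atp5g3, Cox7a2 and Ndufv1.

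The isoforms of complex IV that are typical of heart, skeletal muscle and brown fat were dim. Cox8b had 21.7 and 21.3 in controls and 213.1 with 62.5 on day 2 of estradiol, 41.3 with 69.2 on day 3 and 63.5 with 36.3 on day 6. With genistein it had 22.1 and 30.7, 6.4 and 29.4, and 25.5 and 60.8. All 6 estradiol arrays were above both controls, and so were 5 of the 6 genistein arrays. By its mean log2 value Cox8b was below the brightness limit, and it was not tested. Cox7a1 had 71.5 on estradiol day 2 replicate 1 and 9.9 to 34.5 on the other 13 arrays. Cox6a2, a muscle isoform that was tested, ran from 27.5 to 80.4 and stood at 0.19 ± 0.216 for estradiol against control (limma, adjusted p = 0.720).

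Ucp1 and Cidea, markers of brown fat, were high on some of the same arrays. Ucp1, the uncoupling protein of brown adipocytes, had 12.2 and 24.5 in controls, 543.9 and 190.5, 73.1 and 214.9, and 137.6 and 20.7 at the 3 days of estradiol, and 11.5 and 23.1, 3.5 and 8.3, and 42.8 and 215.8 at those of genistein. It was higher with estradiol than with genistein by 1.82 ± 0.405 (SE). Ucp1 passed the brightness limit through the arrays where it was high, so no p is given for this difference. The array highest in Ucp1 was also the highest in Cox8b, Cox7a1 and Cidea, a lipid droplet protein of brown fat. Other genes of the brown adipocyte list went another way. Elovl3 was highest on genistein day 6 replicate 2 (80.5, beside 65.5 on that array), and Dio2 on control replicate 2 (86.5, beside 66.3). The summed signal of the brown adipocyte list, 7 genes on the array, was 207.3 to 224.7 in controls, 205.5 to 889 with estradiol and 148.7 to 516.9 with genistein. Of the list, 4 genes passed the limit, Ucp1 among them. Between estradiol and genistein 2 of the 4 were positive, with a median of 0.029 over the mean of days, and 0 of the 4 at day 6, with a median of -0.48. For estradiol against control 3 of the 4 were positive, with a median of 0.21. The white adipocyte list (11 genes) summed to 1449 to 1499 in controls, 2182 to 3584 with estradiol and 1209 to 2181 with genistein. Over the mean of days, 4 of 8 tested genes were called higher for estradiol against control (limma), beside 0.604% of all probe sets called. Against genistein 4 were also called higher with estradiol (beside 1.41%), and 1 was called higher for genistein against control (beside 0.0368%). The heart muscle list summed to 260.6 to 285.7, 197.5 to 443.3 and 250.3 to 392.0, and the striated muscle list to 810.5 to 1006, 727.2 to 833.1 and 766.7 to 973.9. The heart and skeletal myosin heavy chains Myh6, Myh1, Myh2 and Myh4 stayed at or below 27.2 on every array. In whole tissue, a change in the share of a cell type and a change of RNA per cell cannot be told apart, and the part of fat in these values was not tested.

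**Figure D5:**
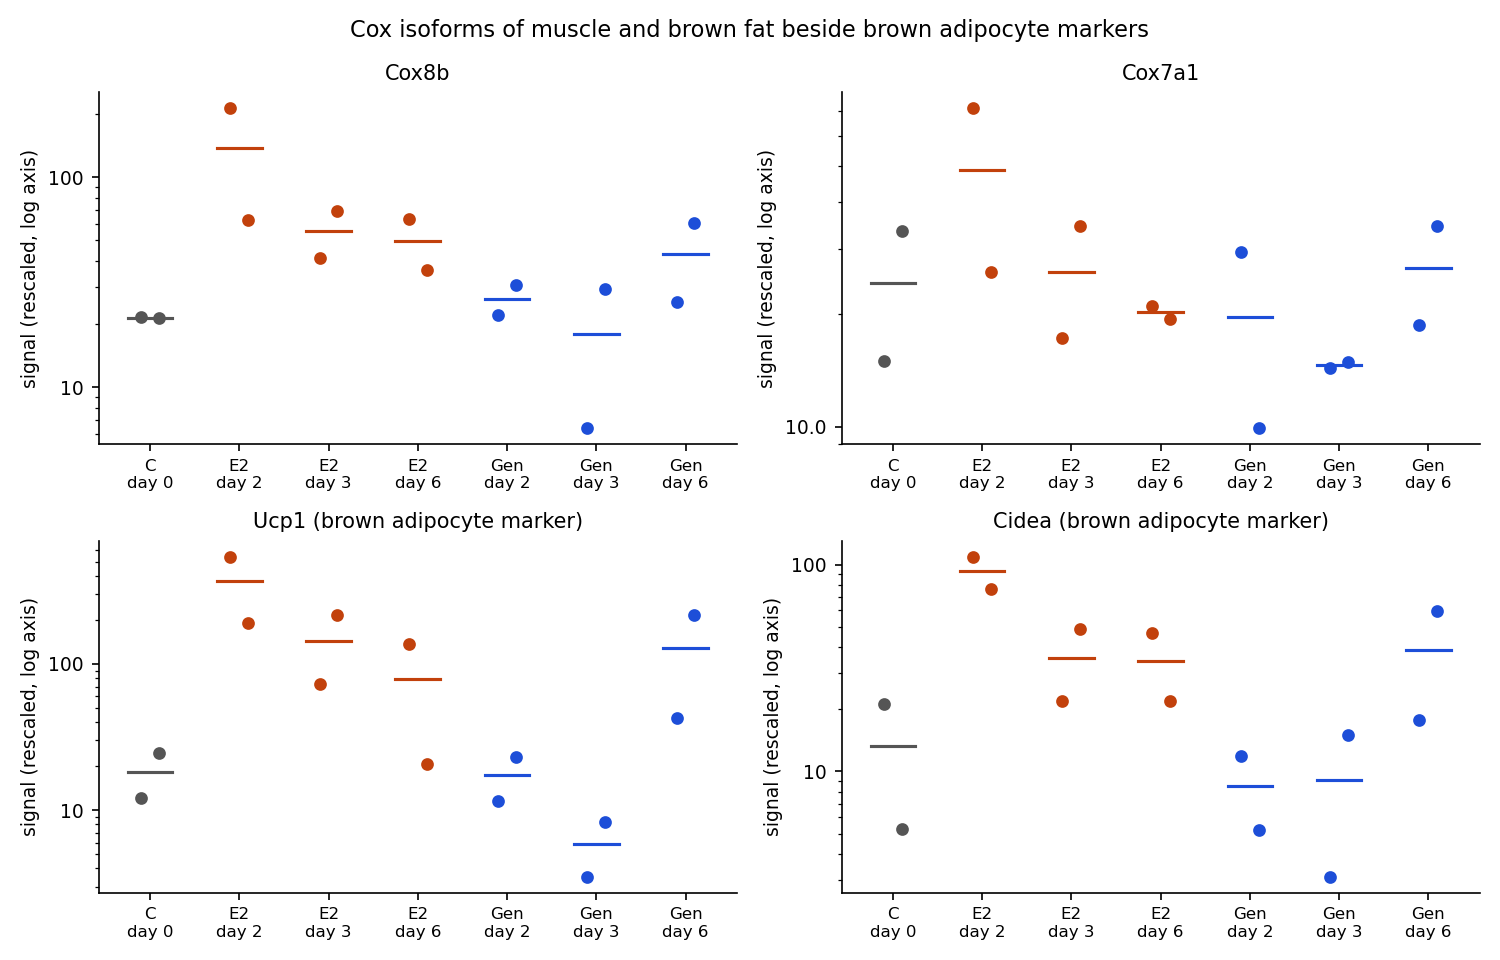
Signals of the complex IV isoforms Cox8b and Cox7a1 and of the brown adipocyte markers Ucp1 and Cidea on each array (points, log axis) with the mean of the 2 arrays of a group (lines). Estradiol day 2 replicate 1 is the highest array in all 4 panels, at 213.1, 71.5, 543.9 and 109.3.

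Other cell markers also differed. Macrophage genes summed to 2857 to 3096 in controls, 3622 to 4074 with estradiol and 2861 to 3678 with genistein. For estradiol against control over the mean of days 3 of 13 tested were called higher (limma), beside 0.604% of all probe sets called. Thymic epithelial genes summed to 9914 to 10260, 12250 to 14640 and 11460 to 12450, with 4 of 15 called higher in the same comparison. Dividing cell genes summed to 13000 to 14370, 11330 to 12680 and 12410 to 14270, with 0 called (limma, 7 of 15 at an unadjusted p under 0.05), and their median change with estradiol was -0.25. The part of these cells in the changes of the oxidative phosphorylation genes was not tested.

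Genes that work beside the complexes gave the following. The list values are for estradiol against control over the mean of days. In that comparison 14.84% of all probe sets had an unadjusted p under 0.05 (limma). Atpif1, the inhibitor of the ATP synthase, stood at -0.58 ± 0.139 for estradiol against control (limma, adjusted p = 0.0792), with 447.3 and 608.6 in controls and 292.2 to 390.2 on the 6 estradiol arrays, and 369.8 to 447.1 with genistein. Of 74 mitochondrial ribosomal protein genes, which serve the translation of mitochondrially encoded subunits, 0 were called (limma, 21 at an unadjusted p under 0.05) and 12 were positive, with a median of -0.20. With the deposited scale as a term the median was -0.13. Of 16 genes of the citric acid cycle and pyruvate dehydrogenase, which feed the chain, 0 were called (3 at an unadjusted p under 0.05) and 8 were positive, with a median of -0.0041. Of 19 assembly factors of complexes III and IV and 11 of complexes I, II and V, 0 were called in each list (2 and 4 at an unadjusted p under 0.05), with medians of -0.081 and -0.080. Regulators of mitochondrial gene expression (16 tested) had a median of -0.048 and 0 calls (2 at an unadjusted p under 0.05), and the carriers of nucleotides and phosphate (10 tested) had a median of -0.045 and 0 calls (2). The mitochondrially encoded complex I subunit ND5, the one such gene measured, stood at 0.26 for estradiol and 0.28 for genistein against control. Its arrays ran from 1520 to 1994 in controls, 1887 to 2409 with estradiol and 1528 to 2867 with genistein.

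Many genes had several probe sets, and these did not always go together. Of 43 genes with more than 1 tested probe set, all probe sets of 24 were lower with estradiol than with genistein, all of 5 were higher and 14 were mixed. Against control, estradiol had 23 with all lower, 6 with all higher and 14 mixed, and genistein had 10, 10 and 23. Cycs is an example, since its brightest probe set stood at -0.055 ± 0.156 for estradiol against control and the dimmer ones at -0.37 ± 0.139 and -0.52 ± 0.172 (limma, adjusted p = 0.901, 0.230 and 0.178). Between the 2 arrays of the same group, the members' SD had a median of 0.058 log2 units at day 6 of estradiol, the lowest, and up to 0.17 in the other groups.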

How the data were processed

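RNA from whole thymus, pooled from 3 mice per array, was hybridised to 14 one-colour Affymetrix arrays. The deposited intensity values are MAS5 5.0 signals, per the submitters' processing notes. Control probe sets, 64 of 22690, were removed. 20393 had 1 gene symbol, 691 several and 1606 none, and 8 probe sets of oxidative phosphorylation genes that carried several symbols were left out. Arrays were rescaled to a common 2%-trimmed mean, log2(signal + 16) was taken, and the 40% of probe sets with the lowest means were dropped. Group means were fitted to all 14 arrays with limma 3.58.1 in R 4.3.3 (lmFit, eBayes with trend, 7 residual degrees of freedom), with p-values adjusted by Benjamini-Hochberg over 13576 probe sets and a threshold of 0.05. The procedure was tested on simulated data. Lists are described by counts and medians over genes, each by its brightest probe set. Named genes were the extremes of each complex (3 at each end for complexes I, IV and V, 2 for III, all of II), Cycs, the called genes and those of smallest F test p. The isoform sets of complex IV were looked up whatever their values. Members and lists were chosen with earlier results of these data known, and Atpif1 was added after its values were seen. Alternatives covered scaling, filter, pseudocount, trend, Gapdh ratio and left-out arrays. With 2 arrays per group, precision is limited by their number, and p-values measure the spread between pools.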

Additional observations from a re-analysis of the deposited data

How the results depend on the processing

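The 4 calls between estradiol and genistein over the mean of days were 1 with no brightness filter, 2 after quantile normalization, 1 after centring on array medians, 1 without the intensity trend, 2 with the compared groups alone, 0 without the 3 arrays of another deposited scale, 0 with that scale as a term, 2 with the Gapdh ratio as a covariate, 1 without probe sets ending in _x_at or _s_at and, in a setting chosen after seeing the data, 1 without the 2 arrays of highest Gapdh ratio. Leaving out 1 array at a time gave 0 to 8. Without the 3 arrays of another scale the mean was over days 2 and 6 alone, and the term for scale rests on the 2 estradiol arrays of day 2. Calls over all probe sets in these settings are not listed, so the counts do not compare the members with other genes. With the values as deposited, member calls were 94 for this comparison, and 1 and 143 at days 2 and 3. They were 145 and 37 for estradiol against control at day 3 and over the mean. For the 7 groups they were 144 and for the interaction 124. The members' medians for estradiol were then 0.341 and 0.344 against control and genistein, beside 0.43 and 0.41 over all genes. Both medians lay below those of all genes. Calls over all probe sets on this scale are not listed either, so these counts are not a result about the members. Atp5c1 and Atp5d turned to 0.063 and 0.114. With the scale as a term the median against control was -0.0138. The Gapdh covariate gave 1 call (Atp5k) for estradiol day 6 against control, and leaving out the 2 arrays gave 1 (Uqcrh) over the mean. Leaving out 1 array gave 0 to 1 calls for estradiol day 6, 0 to 2 for the estradiol mean, 0 to 1 for genistein day 2, 0 to 1 for the genistein mean and 0 to 1 for the 7 groups, 0 to 2 for estradiol against genistein at day 6, and a genistein median of -0.0715 to 0.0467. Apart from the scale of the deposited values, the cause of the differences between settings was not tested. The main fit did not pair arrays by replicate number. Deviations of replicate 1 from the group mean had correlations of -0.256 to 0.351 over 21 pairs of groups. Their median was -0.0063, and 5 were above 0.1. With the replicate number as a block, 3 members were called between the treatments, Sdha at a limma adjusted p of 0.0625, and 0 in the other comparisons.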
